A study of Saccharomyces cerevisiae with 26 samples.

Results

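Trehalose is a sugar made of a pair of joined glucose units that budding yeast stores and that protects its proteins and membranes under stress. A synthase complex joins UDP-glucose and glucose 6-phosphate into trehalose 6-phosphate and then removes the phosphate, and trehalases split the finished sugar back into glucose. In yeast the store is generally low in fast growth on glucose and high in starved or stressed cells, and synthesis and breakdown are known to be switched on together in many stresses.

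The genes described are the 7 of this cycle in Saccharomyces cerevisiae, chosen by symbol. TPS1 (YBR126C) encodes trehalose-6-phosphate synthase and TPS2 (YDR074W) the phosphatase that completes the sugar. TPS3 (YMR261C) and TSL1 (YML100W) are paralogs that encode regulatory subunits of the same complex. NTH1 (YDR001C) and NTH2 (YBR001C) encode neutral trehalases of the cytosol, also paralogs, and ATH1 (YPR026W) encodes acid trehalase, which acts in the vacuole and at the cell surface. Each gene had 1 probe set, none with a suffix that marks cross-hybridising probes, so the 7 genes stood for 7 of 10928 probe sets and 7 of 5445 genes tested.

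RNA of haploid S288C cells of mating type alpha, the standard laboratory strain, was measured on 26 Affymetrix yeast arrays. Cells immobilized in 3 mm calcium alginate beads in a reactor fed medium of 100 g/L glucose gave 4 arrays each at days 1, 3 and 5 and 3 arrays each at days 10 and 17, and 2 more arrays were labelled day 0, which titles place before immobilization and source names just after it. Free cells came from an anaerobic batch begun with 10 g/L glucose, at 72 h in stationary phase (2 arrays) and at 12 h in log phase (2 arrays), and from a chemostat, also anaerobic, with 1 g/L glucose in the feed and a dilution rate of 0.15 per h, sampled at 72 h (2 arrays). Whether oxygen was kept out of the bead reactor is not given. RNA was extracted from beads and from free cells by different methods, so culture form and extraction cannot be told apart in any comparison of the 2. The day 0 samples carry the bead extraction too. No label states that the arrays within a group are of different cultures, and the p-values then reflect the spread between these samples alone, which may be technical. In RNA from whole cultures, fewer cells with a transcript and less of it per cell cannot be told apart. The mating type could not be checked, because the values give no level for the marker genes of either type.

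The deposited value is the ratio of a probe set's signal to its own median over the 26 arrays, given here as log2, so that 0 is that median and 1 is a doubling. Since 18 of the 26 arrays are bead arrays, bead values lie near 0 by construction, and a gene's level cannot be set against another gene's. A gene is called higher or lower where limma's adjusted p, over all 5445 genes, is under 0.05 and the change is at least 1 on the log2 scale, that is 2-fold. One bead array, day 1 replicate 3, stands apart: over all genes it correlated with the log-phase arrays at 0.704 and with its own group at 0.119. Control probe sets for both ends of 8 transcripts also differed between groups. Their 3' minus 5' difference averaged 0.115 on the log2 scale in the 18 bead arrays (-0.257 to 0.487) and -0.213 in the other 8 (-0.466 to 0.140). It did not follow culture form alone. Group means were -0.357 in log phase, -0.331 in the chemostat and -0.163 on day 0. Stationary phase, at -0.0003, was close to bead day 1, at 0.0199. The part of this difference in the results was not tested, and values without day 1 replicate 3 are given where it moves them by over 1.5 times or across the p limit.

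**Figure D1:**
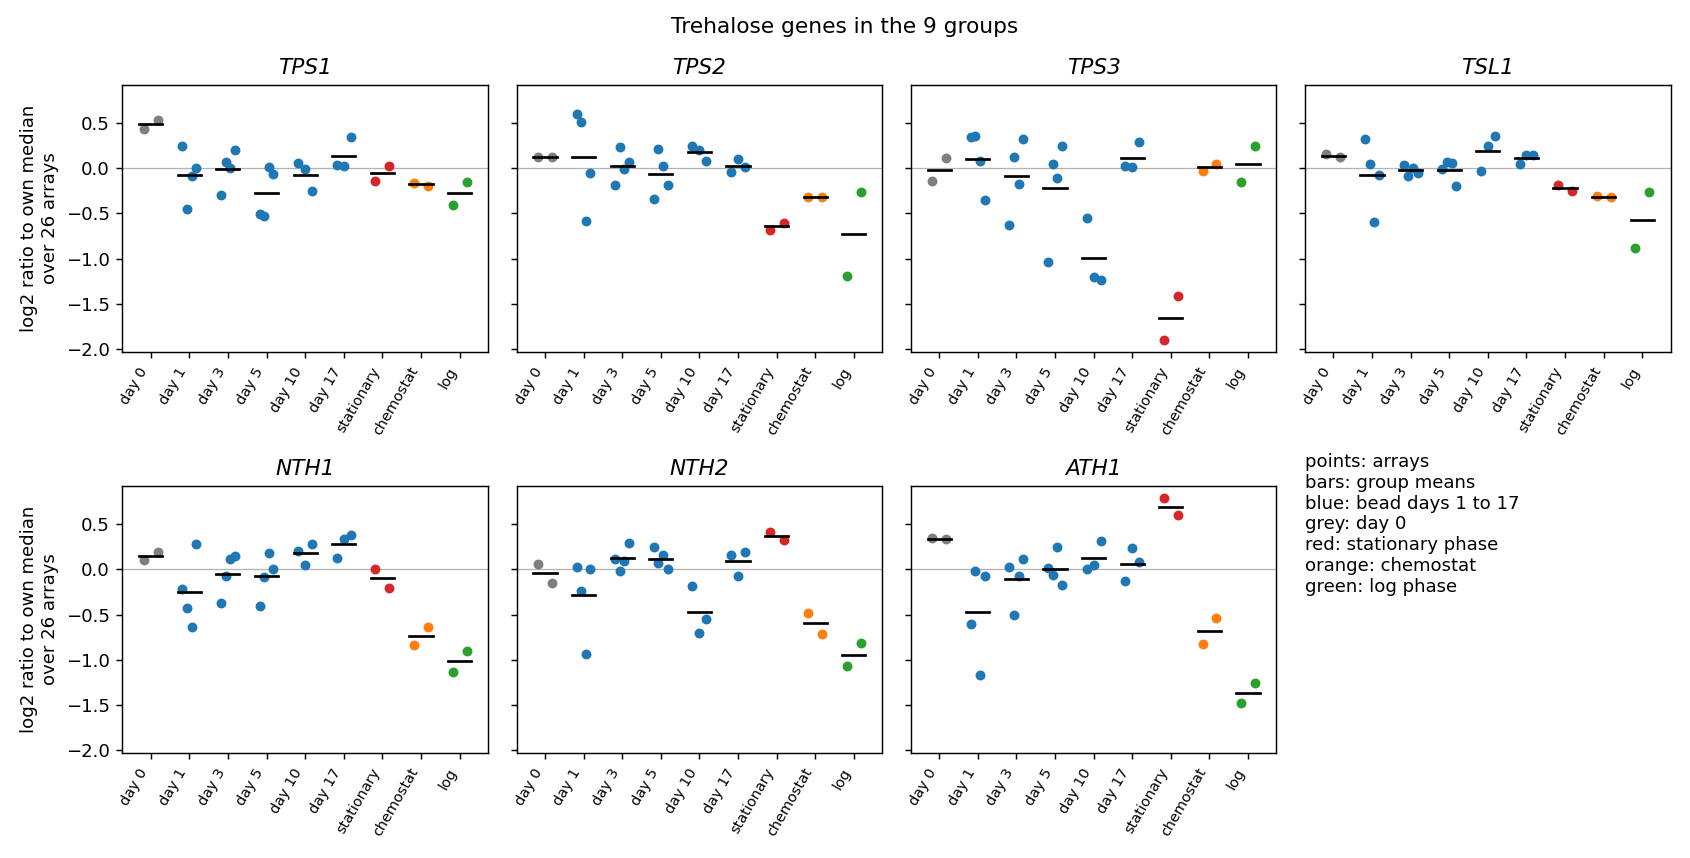
Log2 ratio of each of the 7 trehalose genes (vertical axis, log2 of the ratio to the gene's own median over 26 arrays) on every array, by group (horizontal axis). Points are arrays and bars are group means. ATH1 and NTH1 have their lowest bars in log phase, TPS3 has its lowest in stationary phase with day 10 next, and TPS1 and TSL1 stay within 1 unit of 0 throughout.

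Most of the trehalose genes spanned a narrow range. Over the 9 group means TSL1 spanned 0.76, TPS1 0.77 and TPS2 0.90 on the log2 scale, against a median span of 1.64 over all genes, and only 6.72%, 6.85% and 11.9% of genes spanned less. NTH1 and NTH2 spanned 1.30 and 1.31, with 32.2% and 32.8% of genes below them. TPS3, at 1.76 with 55.3% of genes below it, and ATH1, at 2.06 with 67.1% below it, were the 2 members with a wider span than the median gene. The catalytic subunits of synthesis thus spanned less across the cultures than acid trehalase or the TPS3 subunit did.

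Set against log phase, the trehalase genes ATH1 and NTH1 rose in beads, 2.45-fold and 2.05-fold. The other 5 members were not called, and none was called lower. The background is 30.5% of all genes called in this comparison, 15.9% higher and 14.7% lower, so 2 of 7 is close to the share of all genes. The median change of the 7 was 0.78, against -0.01 over all genes.

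ATH1 ran from -1.17 through a median of -0.01 to 0.31 in the 18 bead arrays, against -1.47 and -1.26 in log phase. Every bead array was above both log-phase arrays, the nearest being day 1 replicate 3. The fitted change was 1.29 ± 0.22 (SE) on the log2 scale, with an adjusted p of 0.000101 by limma, and 1.34 without that array. Repeated quantile normalization gave 0.73, which ends the call.

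NTH1 ran from -0.63 through 0.08 to 0.38 in the bead arrays, against -1.13 and -0.90 in log phase, again without overlap. Its change of 1.04 ± 0.19 (limma, adjusted p = 0.000225) lies just past the 2-fold limit and missed it in 4 other settings. It was 0.92 without log-phase replicate 1, 0.93 with the replicate number as a block, 0.99 without the 3 bead arrays with next to no signal of dap, a bacterial control RNA, and 0.70 after repeated quantile normalization. NTH2 was short of it from the start: its values ran from -0.94 through 0.01 to 0.30 in beads, against -1.07 and -0.81 in log phase, and 17 of 18 bead arrays were above both. The difference was 0.86 ± 0.19 (limma, adjusted p = 0.00118, and 0.0523 without log-phase replicate 1). The 3 trehalases thus had bead values above log phase, by 1.81-fold to 2.45-fold, with the smallest change for NTH2.

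**Figure D2:**
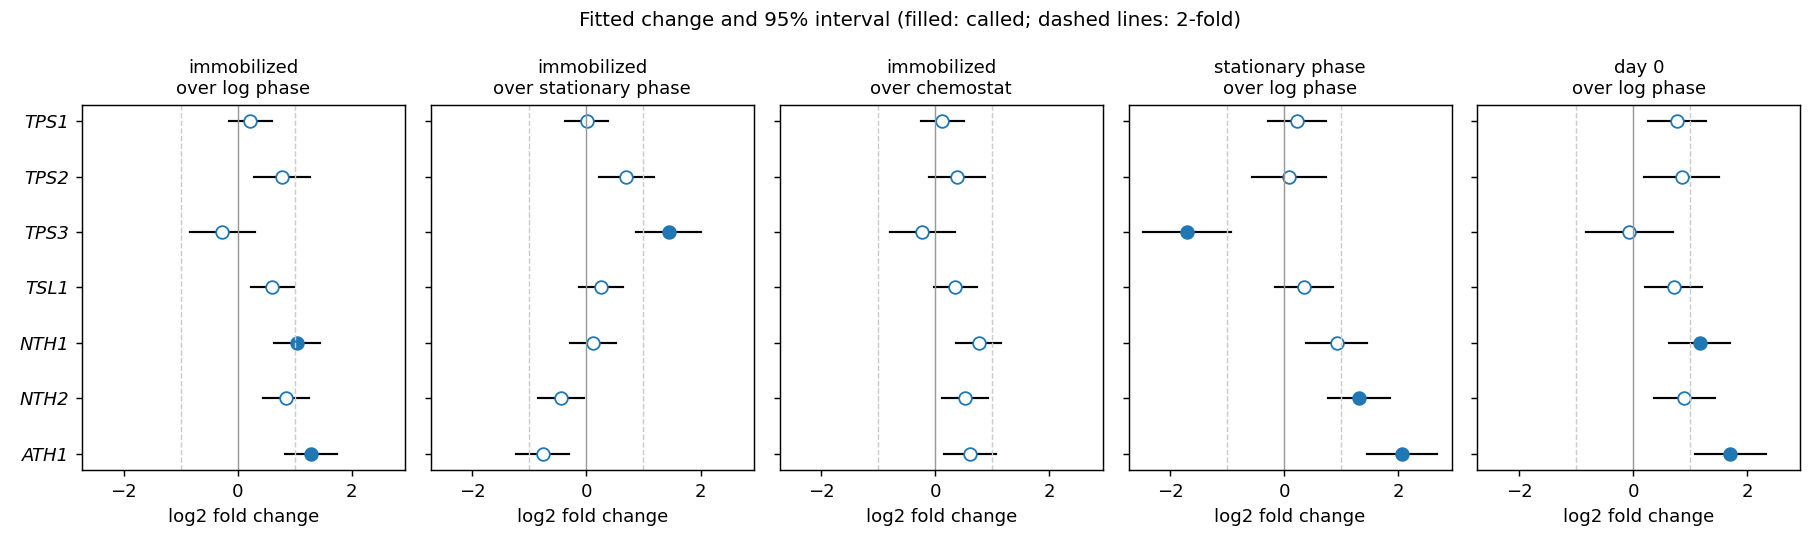
Fitted log2 fold change (horizontal axis) of the 7 trehalose genes (vertical axis) in 5 comparisons, with 95% intervals from limma. Filled points passed both limits, and the dashed lines mark 2-fold. NTH1 and ATH1 are filled in beads over log phase, TPS3 alone in beads over stationary phase and no gene in beads over chemostat.

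No gene of the synthase complex was called against log phase. TPS2 ran from -0.58 through 0.05 to 0.60 in beads, against -1.19 and -0.27 in log phase, and TSL1 from -0.60 through 0.04 to 0.36, against -0.88 and -0.26. For both genes the 2 log-phase arrays lie far apart, and most bead arrays, 16 of 18 for TPS2 and 17 of 18 for TSL1, were above both. Their changes were 0.78 ± 0.24 and 0.61 ± 0.18, with adjusted p of 0.00912 and 0.00894 by limma and no 2-fold change. Without log-phase replicate 1 the change of TPS2 was 0.32 (limma, adjusted p = 0.447) and that of TSL1 0.30 (adjusted p = 0.373), and without log-phase replicate 2 TPS2 was called at 1.24. These values therefore rest on which log-phase array is used.

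TPS1 overlapped fully between the groups, running from -0.53 through 0.01 to 0.35 in beads against -0.41 and -0.15 in log phase. Its change was 0.22, with a 95% interval of -0.16 to 0.60, which leaves out a 2-fold change either way. TPS3 ran from -1.24 through 0.02 to 0.36 in beads against -0.15 and 0.25 in log phase, a change of -0.27 (-0.84 to 0.30). At the p limit alone, with no fold limit, 5 of the 7 genes passed, all higher, where 49.7% of all genes passed, 24.9% being higher.

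Set against stationary phase, the comparison with starved cells, TPS3 was the 1 trehalose gene called, higher in beads by 2.71-fold. Of all genes 26.3% were called there, 11.8% being higher. Its bead arrays, from -1.24 to 0.36 with a median of 0.02, were all above the stationary-phase values of -1.90 and -1.41. The change was 1.44 ± 0.28 (limma, adjusted p = 0.000269).

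ATH1 and NTH2 had lower values in beads, short of a call. All 18 bead arrays of ATH1, from -1.17 to 0.31, were below the stationary-phase values of 0.79 and 0.60, and the difference was -0.77 ± 0.22 (limma, adjusted p = 0.00786). All 18 bead arrays of NTH2, from -0.94 to 0.30, were below its stationary-phase values of 0.41 and 0.33, and the difference was -0.45 ± 0.19 (limma, adjusted p = 0.0628, and 0.0329 without day 1 replicate 3). When 1 array at a time was left out, the difference ran from -0.86 to -0.68 for ATH1 and from -0.497 to -0.41 for NTH2. The adjusted p of ATH1 was not under 0.05 in all of these runs, and that of NTH2 rose as well as fell.

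The bead arrays of NTH1, with a median of 0.08, spread around its stationary-phase values of 0.01 and -0.20, and the difference was 0.12 (95% interval -0.29 to 0.52). All 18 bead arrays of TPS2, from -0.58 to 0.60, were above its stationary-phase values of -0.68 and -0.61, a difference of 0.70 ± 0.24 (limma, adjusted p = 0.0202). With 1 array left out this difference ran from 0.66 to 0.75, and its adjusted p was not under 0.05 in every such run. For TPS1 the bead median was 0.01, against -0.14 and 0.02 in stationary phase, and the difference was 0.00 with a 95% interval of -0.38 to 0.38. For TSL1 it was 0.04, against -0.18 and -0.25, and the difference was 0.25 (-0.12 to 0.63). The median of the 7 was 0.12, against -0.06 over all genes. With no fold limit 3 of the 7 passed, TPS2, TPS3 and ATH1, against 43.9% of all genes.

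Against the chemostat, the slowly growing free cells, no trehalose gene was called, where 19.5% of all genes were. At an unadjusted p under 0.05 in limma, where the share of all genes was not counted, 3 of the 7 passed, all trehalases and all higher in beads. The same 3 passed on adjusted p with no fold limit, against 33.9% of all genes. Every bead array of NTH1, the lowest at -0.63, was above its chemostat values of -0.84 and -0.64, and the difference was 0.76 ± 0.19 (limma, adjusted p = 0.00504), that is 1.69-fold. ATH1 had a bead median of -0.01, against -0.82 and -0.54 in the chemostat, a difference of 0.60 ± 0.22 (limma, adjusted p = 0.0397). NTH2 had a bead median of 0.01, against -0.49 and -0.71, a difference of 0.51 ± 0.19 (limma, adjusted p = 0.0457, and 0.0518 with 1 log-phase array, whichever it was, left out of the model). Above both chemostat arrays were 16 of the 18 bead arrays for ATH1 and 15 for NTH2, and 1 was below both for each gene. With 1 array at a time left out, the difference ran from 0.66 to 0.86 for NTH1 and from 0.46 to 0.75 for ATH1. For NTH2 it was at least 0.40. For none of these 3 trehalases did the adjusted p stay under 0.05 in every such run.

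The chemostat values of the synthase genes lay inside the bead range. They were -0.16 and -0.19 for TPS1, -0.32 and -0.31 for TPS2, -0.02 and 0.05 for TPS3, and -0.31 and -0.32 for TSL1. For TSL1 this rests on day 1 replicate 3 alone, at -0.60, since its next lowest bead array had -0.20. Bead arrays above both chemostat arrays numbered 13 for TPS1, 16 for TPS2, 7 for TPS3 and 17 for TSL1. Below both were 5, 2, 8 and 1, in that order. The bead over chemostat changes of the synthase genes ran from -0.23 for TPS3 to 0.37 for TPS2. The 95% intervals, of which the widest are -0.80 to 0.34 and -0.12 to 0.86, leave out a 2-fold change either way.

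The free cultures show how these genes moved without beads. All comparisons with log phase share the same 2 log-phase arrays. In stationary phase over log phase, ATH1 rose 4.17-fold and NTH2 2.48-fold while TPS3 fell, 3 of 7 members called where 44.5% of all genes were called, 22.8% higher and 21.7% lower. The fitted changes were 2.06 ± 0.30 for ATH1 (limma, adjusted p = 1.4e-05), 1.31 ± 0.26 for NTH2 (0.00034) and -1.71 ± 0.37 for TPS3 (0.000718). In each of these 3 called genes both stationary-phase arrays lay beyond both log-phase arrays, and the share of all genes so separated was not counted. After repeated quantile normalization the value was -1.30 for TPS3 (limma, adjusted p = 0.0713) and 0.79 for NTH2 (0.0563), which ends both calls.

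NTH1, whose stationary-phase arrays were also above both log-phase arrays, differed by 0.92 ± 0.26 (limma, adjusted p = 0.00577). Without log-phase replicate 1 this was 0.80 (adjusted p = 0.0546), and without log-phase replicate 2 it passed 2-fold at 1.03. For TPS1, TPS2 and TSL1 the differences were 0.22, 0.08 and 0.35, with adjusted p from 0.23 to 0.842. Without log-phase replicate 1 the value for TPS2 was -0.38, so its direction is not settled. In starved free cells, then, trehalase transcripts other than NTH1 rose past the limits and those of the catalytic synthase subunits did not.

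In the chemostat over log phase no trehalose gene was called, and 2.28% of all genes were. Of the members ATH1 alone had an unadjusted p under 0.05 in limma, and the share of all genes at that limit was not counted. Its difference was 0.69 ± 0.30 (limma, adjusted p = 0.339), and both its chemostat arrays were above both log-phase arrays. The other 6 differed by -0.04 to 0.41.

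On day 0 over log phase, again with the same log-phase arrays, 2 trehalases were called. ATH1 rose 3.26-fold and NTH1 2.24-fold, 2 of 7 members against 36.4% of all genes called, 18.6% higher. ATH1 had 0.34 on both day 0 arrays and changed by 1.71 ± 0.30 (limma, adjusted p = 0.000114), and NTH1 had 0.10 and 0.19 and changed by 1.17 ± 0.26 (adjusted p = 0.00109), or 0.74 (0.102) after repeated quantile normalization. NTH2 had 0.06 and -0.15 on day 0, a difference of 0.90 ± 0.26 (limma, adjusted p = 0.0081).

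The synthase genes TPS1, TPS2 and TSL1 were also above both log-phase arrays on both day 0 arrays, short of 2-fold. How many of all genes were separated in this way was not counted. TPS1 had its highest group mean of the whole study on day 0, with 0.44 and 0.53, and a change of 0.77 ± 0.24 (limma, adjusted p = 0.0148). TPS2 had 0.13 on both arrays and TSL1 0.16 and 0.12, with differences of 0.85 ± 0.32 and 0.71 ± 0.24 (limma, adjusted p = 0.0321 and 0.0222). These too depend on the log-phase array: without replicate 1 they were 0.39 and 0.40 (adjusted p = 0.42 and 0.298), and without replicate 2 both were called, at 1.32 and 1.02. TPS3 had -0.14 and 0.12 and a change of -0.07 (95% interval -0.83 to 0.70). With no fold limit 6 of the 7 passed, all higher, against 45.1% of all genes, 23% being higher. Without log-phase replicate 1 the adjusted p of TPS1, at 0.121, and NTH2, at 0.0786, was also above the limit, which leaves NTH1 and ATH1.

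At day 1 over day 0 no trehalose gene was called, and 20.3% of all genes were. In limma 2 members had an unadjusted p under 0.05, a limit at which the share of all genes was not counted. ATH1 had -0.60, -0.02, -1.17 and -0.07 at day 1, all below the day 0 arrays, both at 0.34, a difference of -0.81 ± 0.26 (limma, adjusted p = 0.0221). Its value is drawn down by day 1 replicate 3, without which it was -0.57 (adjusted p = 0.0604). It was the 1 gene of the 7 to pass with no fold limit, where 29.8% of all genes did. TPS1 had 0.25, -0.45, -0.09 and 0.00 at day 1, also all below the 0.44 and 0.53 of day 0, a difference of -0.56 ± 0.21 (limma, adjusted p = 0.0515).

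From day 1 to day 17 in the beads 1 trehalose gene, TPS3, was called in the F-test over the 5 days, where 20.9% of all genes were called. Its mean was 0.11 on day 1, then -0.09 on day 3 and -0.21 on day 5, reached -0.996 on day 10 and was 0.11 again on day 17, a range of 1.11 (limma F-test, adjusted p = 0.0312). The day 10 arrays had -0.55, -1.20 and -1.24, and the day 17 arrays 0.02, 0.01 and 0.29. Low values were not confined to day 10, since 1 array of day 5 had -1.04 and 1 of day 3 had -0.63. The call was lost without day 10 replicate 2 (adjusted p = 0.188), without day 10 replicate 3 (0.175) and without day 1 replicate 1 (0.0571), and by repeated quantile normalization (0.247).

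NTH2 was also lowest at day 10, with -0.18, -0.70 and -0.54 there, and a mean of -0.48. Its means were -0.29 on day 1, 0.12 on both day 3 and day 5, and 0.09 on day 17. Its F-test gave an adjusted p of 0.0567 in limma, and 0.034 without day 1 replicate 3, with a range of 0.60 that is short of the 2-fold limit. TPS1, TPS2, TSL1, NTH1 and ATH1 ranged over 0.25 to 0.59 between their day means, with adjusted p from 0.19 to 0.908. Both ends rest on day 1 replicate 3, without which the range of TPS2 was 0.42 instead of 0.25 and that of ATH1 0.36 instead of 0.59. The median range of the 7 was 0.53, against 0.73 over all genes.

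At day 17 over day 1 no trehalose gene was called, in a comparison where 0.294% of all genes were. In limma 2 members, NTH1 and ATH1, had an unadjusted p under 0.05, and the share of all genes at that limit was not counted. NTH1 had 0.13, 0.34 and 0.38 at day 17, against -0.21, -0.43, -0.63 and 0.29 at day 1, a difference of 0.53 ± 0.20 (limma, adjusted p = 0.161). ATH1 had -0.13, 0.24 and 0.08 at day 17, against -0.60, -0.02, -1.17 and -0.07 at day 1, a difference of 0.53 ± 0.23 (adjusted p = 0.196). Without day 1 replicate 3 it was 0.30 (adjusted p = 0.452). The groups overlapped for all 7 genes, and the differences ran from -0.09 for TPS2 to 0.53, with the highest upper end of a 95% interval at 1.00, for ATH1. Without day 1 replicate 3 the values were also smaller for NTH2, at 0.16 instead of 0.38, and for TSL1, at 0.01 instead of 0.19, and TPS2 was at -0.33.

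The order of the 9 groups differed between members. ATH1 was highest in stationary phase (mean 0.69), then day 0 (0.34), with no overlap between these or with the day 10 arrays that come next (0.12). Its order then ran through days 17, 5, 3 and 1 to the chemostat (-0.68), each overlapping its neighbour, and ended in log phase (-1.37), below every chemostat array. NTH1 ran from day 17 (0.28) through day 10 (0.18), day 0 (0.15), day 3 (-0.04), day 5 (-0.08) and stationary phase (-0.10) to day 1 (-0.25), neighbours overlapping throughout, and then, each without overlap, to the chemostat (-0.74) and log phase (-1.02). NTH2 was highest in stationary phase (0.37), clear of days 3, 5 and 17, and lowest in log phase (-0.94), clear of the chemostat (-0.60).

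TPS1 was highest on day 0 (0.49), clear of day 17 (0.13), and from there to log phase (-0.28) all neighbours overlapped. TPS2 overlapped from day 10 (0.18) to the chemostat (-0.32), which was clear of stationary phase (-0.64). The lowest mean was in log phase (-0.73), whose 2 arrays lie on either side of the chemostat and stationary-phase arrays. TSL1 had a single gap between neighbours, between stationary phase (-0.22) and the chemostat (-0.31), with log phase lowest (-0.57). TPS3 overlapped from day 17 (0.11) down to day 10 (-0.996), and stationary phase (-1.66) was clear below it. Log phase thus had the lowest mean for 6 members and was among the upper groups for TPS3. The gap to the next group was only 0.01 for TPS1 and 0.08 for TPS2, with arrays that overlap. The share of all genes with their lowest mean in log phase was not counted.

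TSL1 and TPS3 share their role in the complex and NTH1 and NTH2 their enzyme activity, so the difference between paralogs was taken on each array. TSL1 minus TPS3 averaged 0.22 ± 0.63 (SD, n = 18) in beads and -0.62 ± 0.16 in log phase (SD, n = 2), with 17 of 18 bead arrays above both. In stationary phase it was 1.72 and 1.16, with 16 of 18 bead arrays below both, and in the chemostat it was -0.28 and -0.37. The bead minus free differences were 0.84 for log phase, -1.22 for stationary phase and 0.54 for the chemostat. By a two-sided exact permutation test over 190 splits, whose smallest p is 0.0105, p was 0.0211, 0.0421 and 0.189, and 0.105, 0.105 and 0.284 after adjustment over the 6 paralog tests.

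NTH1 minus NTH2 averaged 0.07 ± 0.38 (SD, n = 18) in beads, and was -0.40 and -0.53 in stationary phase, -0.35 and 0.07 in the chemostat and -0.06 and -0.09 in log phase. The bead minus free difference was 0.54 for stationary phase, 0.21 for the chemostat and 0.14 for log phase, with adjusted p of 0.105, 0.556 and 0.653 by the same exact permutation test. None of the 6 paralog tests passed after adjustment. With a smallest possible p of 0.0105 in the permutation test, a single test could not pass unless another also had a low p. The tests therefore cannot show that the paralogs changed alike. On all 3 day 10 arrays the log2 ratio of TSL1 was above that of TPS3 and the ratio of NTH1 above that of NTH2.

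**Figure D3:**
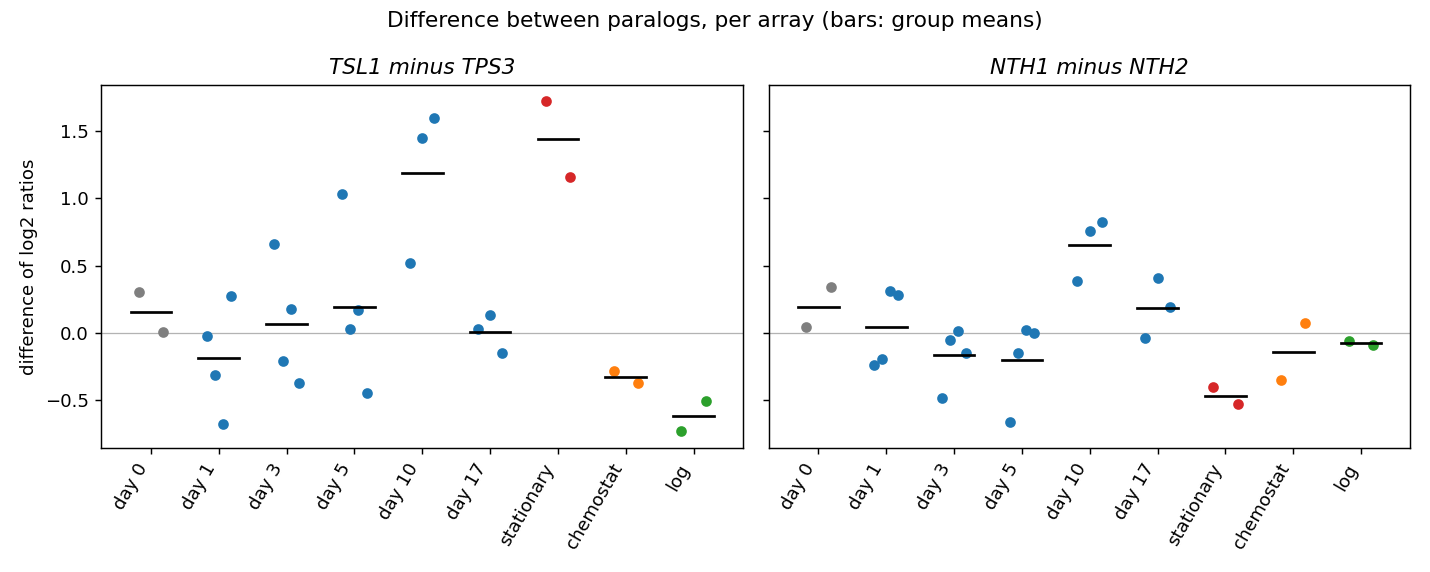
Difference of log2 ratios between paralogs on each array (vertical axis) by group (horizontal axis), with bars for group means. TSL1 minus TPS3 (left) is highest in stationary phase and at day 10, and NTH1 minus NTH2 (right) is highest at day 10 and lowest in stationary phase.

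Across the 9 group means the members did not share 1 profile. Pearson's r was 0.945 between TSL1 and NTH1, 0.883 between TPS2 and TSL1, 0.850 between NTH2 and ATH1 and 0.846 between NTH1 and ATH1. The paralogs NTH1 and NTH2 had 0.723, and TPS3 and ATH1 had -0.605. These are descriptions over 9 points that come from the same arrays, 4 of them means of 2 arrays each, and are given without p.

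The genes whose 9 group means followed a member most closely differed between members too. They were ATG9 (0.994), POX1 and COX7 for ATH1, YAK1 (0.984), PLB1 and GYP7 for NTH1, and HUL5 (0.981), ALY1 and HRQ1 for NTH2. ATG9 encodes a membrane protein of autophagy, POX1 the acyl-CoA oxidase of fatty acid breakdown, and YAK1 a kinase that opposes protein kinase A. For the synthase genes they were HSP82 (0.988), the gene of a heat-induced Hsp90 chaperone, YET2 and RUP1 for TSL1, BRO1 (0.949), SNU71 and GPA2 for TPS1, and MGS1 (0.969), YPS5 and YGR237C for TPS2. For TPS3 they were APM4 (0.968), VPS54 and COQ3. GPA2 encodes the G protein subunit that links glucose to protein kinase A. The closest r for TPS1 was the lowest of the 7.

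The genes around the cycle fell into 4 lists, with 26 measured genes in all. In the list of precursor enzymes and sugar uptake, HXK2, the main hexokinase on glucose, and PGM1, a phosphoglucomutase, were called lower in beads than in log phase, at -2.53 ± 0.38 and -2.12 ± 0.27 (limma, adjusted p = 2.33e-05 and 3.47e-06). The other 5 of the 7 were not called, in a comparison where 30.5% of all genes were. Among them UGP1, which makes the UDP-glucose that TPS1 uses, had a difference of -0.18 and MAL11, a transporter that takes up trehalose and other alpha-glucosides, of 0.71 ± 0.44. Against stationary phase MAL11 was called lower in beads, at -1.24 (limma, adjusted p = 0.0256), where 26.3% of all genes were called. Against the chemostat MAL11 was called higher in beads, by 1.16 (limma, adjusted p = 0.0456). HXK2 and PGM1 were called lower there, at -2.16 and -1.25, where 19.5% of all genes were called. The fall of HXK2 and PGM1 from log phase was not confined to beads. In stationary phase over log phase they were called lower, at -3.15 and -1.96, and MAL11 higher, by 1.95. Of all genes 44.5% were called there. On day 0 over log phase HXK2 and PGM1 were called lower, at -2.99 and -1.94, where 36.4% of all genes were called. MAL11 rose on day 0 over log phase by 3.02 ± 0.59 (limma, adjusted p = 0.000318), and at day 1 over day 0 it fell by 2.11 ± 0.51 (adjusted p = 0.00355).

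Protein kinase A is known to activate the Nth1 protein together with Bmh1 and Bmh2, a step that transcripts do not measure. None of the 5 measured genes of the kinase and of BMH1 and BMH2 was called in beads over log phase, stationary phase or chemostat. Of all genes 30.5%, 26.3% and 19.5% were called there, in that order. Against log phase 1 of the 5 had an unadjusted p under 0.05 in limma, where the share of all genes was not counted. The catalytic subunit TPK2 was called higher in stationary phase than in log phase, by 1.31, where 22.8% of all genes were called higher. On day 0 over log phase TPK2 and BCY1, the inhibitory subunit, were called higher, by 1.03 and 1.13, where 18.6% of all genes were. At day 1 over day 0 BCY1 was called lower, at -1.10, where 20.3% of all genes were called either way.

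Of 6 transcription factors and kinases of the stress response, 4 were called higher in beads than in log phase and none lower, where 15.9% of all genes were higher. MSN4, the partner of MSN2 in the general stress response, changed by 2.79 ± 0.25 (limma, adjusted p = 4.32e-08), YAK1 by 1.67 ± 0.21 (3.21e-06), RIM15, a kinase of entry into quiescence, by 1.53 ± 0.18 and GIS1, a factor of late growth stages, by 1.27 ± 0.32. For MSN2 the difference was 0.09 and for HSF1 0.79 ± 0.37 (adjusted p = 0.0776). Free cells showed some of these rises too. In stationary phase over log phase HSF1, GIS1 and YAK1 were called higher, by 1.75, 2.41 and 1.58, where 22.8% of all genes were. On day 0 over log phase GIS1 and YAK1 were called higher, by 1.57 and 1.99, where 18.6% of all genes were. MSN4 and RIM15 were called in neither. Against stationary phase MSN4 and RIM15 were called higher in beads, by 2.69 and 1.204, and GIS1 lower, at -1.14, where 26.3% of all genes were called. Against the chemostat MSN4 and YAK1 were called higher, by 2.24 and 1.11, where 19.5% of all genes were called. The median change of the list in beads over log phase was 1.40, against 0.78 for the 7 trehalose genes.

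Glycogen is the other glucose store of yeast. Against log phase GAC1, a subunit that directs a phosphatase to glycogen synthase, was called higher in beads by 3.46 ± 0.58 (limma, adjusted p = 8.63e-05) and GSY1, a glycogen synthase, lower at -2.30 ± 0.53 (0.00144), 2 of 8 genes against 30.5% of all genes. Against stationary phase 4 of 8 were called, where 26.3% of all genes were: GPH1, glycogen phosphorylase, higher by 1.31, and GSY1 and the glycogenins GLG1 and GLG2 lower, at -1.996, -1.83 and -3.28. In stationary phase over log phase 5 of 8 were called, where 44.5% of all genes were. GLG2 was higher by 3.25, GAC1, as in beads, by 2.19, and GPH1 was lower at -1.495. Among days 1 to 17 GSY1 and GPH1 were called, over ranges of 2.36 and 1.89, while TPS3 was the 1 trehalose gene called there. Of all genes 20.9% were called among these days.

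**Figure D4:**
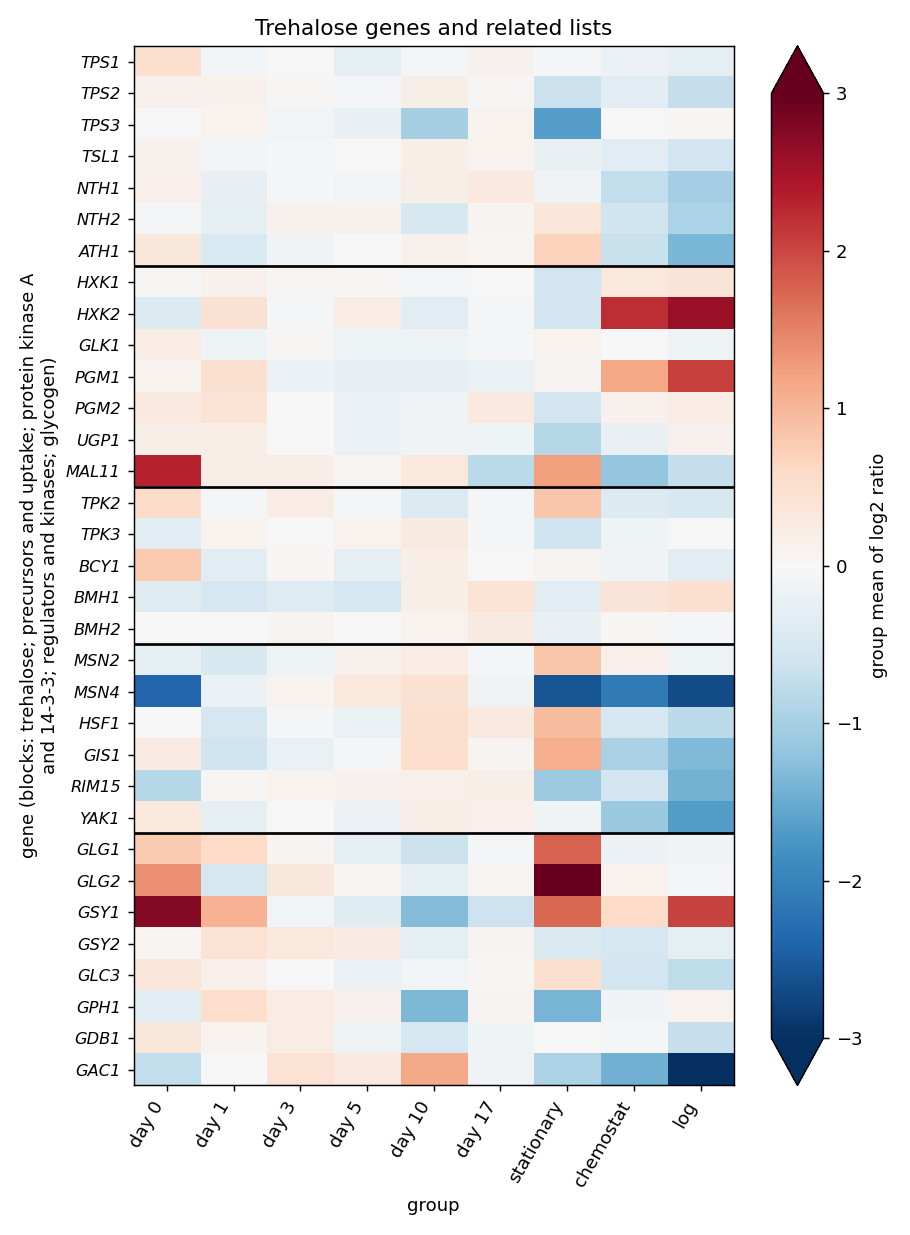
Group means of the log2 ratio (colour, with the scale ending at 3 on either side) for the 7 trehalose genes and the 4 lists around them (vertical axis, in blocks) over the 9 groups (horizontal axis). The trehalose block is paler than the blocks of regulators and glycogen genes, with TPS3 in stationary phase, ATH1 in log phase, NTH1 in log phase and TPS3 at day 10 as its darkest cells.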

How the data were processed

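The authors deposited a linear ratio per probe set and array, made after RMA summarisation per the submitters' processing notes. Ratios ran from 0.0102 to 158.7. Over the 26 arrays the medians of single probe sets were 0.9905 to 1.047, so the ratio is to the probe set's own median. Log2 of these deposited ratios was taken here. Arrays have no read depth, and precision is limited by how many there are.

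Probe sets annotated with exactly 1 S. cerevisiae gene gave 5449 genes; for 47 with several, that of highest mean ratio was kept, and 4 genes with missing values were left out. All 26 arrays entered 1 model with 9 group means in limma 3.58.1 (lmFit, eBayes) in R 4.3.3, with 17 residual and 21.02 total degrees of freedom, so groups of 2 arrays borrow the spread of the others. The bead mean weighted the 5 days equally. P-values were adjusted by Benjamini-Hochberg over 5445 genes. Paralog differences were tested by exact permutation over arrays weighted equally.

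The 7 genes, the lists, tests and alternatives were chosen with earlier results of these data known. All 7 genes are described. From a list, genes called in a comparison and up to 3 with the largest change may be named; UGP1, MSN2 and HSF1 were named with their values seen. A planned search of promoters was not run, since no sequences were used here, and coordinates are left out because no build is stated for the values.

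Replicate numbers were checked for pairing by how far same-numbered arrays deviate together from their group means. All 4 correlations were 0.548 to 0.864 for day 5 against day 3, days that enter the bead means and the F-test. For the other pairs of groups examined they were -0.321 to 0.444. The model has no block, and the replicate block is an alternative. On simulated data with 200 changed genes of 5445, changes of 1.5 (log2) were found again in 80.9% of those genes for beads against log phase, 79.75% for day 17 against day 1 and 60.35% for stationary against log phase. The simulated noise was independent between arrays, unlike that of days 3 and 5. In the data 1662 genes were called in beads against log phase, so these shares need not hold there. Permutations used scipy 1.17.1 and figures matplotlib 3.10.9, under Python 3.11.15.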

Additional observations from a re-analysis of the deposited data

Results flagged for a closer look

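TPS3 differed among the bead days, with a range of 1.106 on the log2 scale between its highest and lowest day mean. It is marked because the effect of a day was tested directly, by the F-test over the 5 days in limma, and passed (adjusted p = 0.0312). The 3 day 10 arrays, at -0.55, -1.20 and -1.24, are lower than the day 17 arrays, at 0.02, 0.01 and 0.29. Each gene was also looked at within days 1, 3 and 5, the groups of 4 arrays, and in none of these 21 sets did 1 array stand far from the other 3 by Dixon's test.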

How the results depend on the processing

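All counts are of the 7 trehalose genes called by limma. In beads over log phase the 2 calls became 0 after quantile normalization was repeated (NTH1 0.70, ATH1 0.73), 5 with no fold minimum, 1 with the replicate block (ATH1), 1 without the 25% of genes with the lowest SD, which left 2 members to test, and 1 without the 3 bead arrays with next to no signal of dap, a bacterial control RNA, a setting chosen after seeing the data; leaving out 1 array gave 1 to 3. With no fold minimum, beads had 3 calls over stationary phase, against 1, and 3 over chemostat, against 0; day 0 over log phase had 6 and day 1 over day 0 had 1. Quantile normalization left 1 call in stationary over log phase (TPS3 -1.30, NTH2 0.79 lost), 1 in day 0 over log phase and 0 among days 1 to 17, and the filter by SD left 1 in day 0 over log phase. The call of TPS3 among days was also lost (0 calls) with only the groups compared (adjusted p = 0.0792) and without the arrays with next to no dap (0.298). Leaving out 1 array gave 1 to 1 for beads over stationary phase, 0 to 0 for beads over chemostat, chemostat over log phase, day 1 over day 0 and day 17 over day 1, 3 to 4 for stationary over log phase, 2 to 5 for day 0 over log phase and 0 to 1 among days. Of 2286 recomputed gene values 42 changed sign, 0 of them called, and 8 moved by at least 1 SE: NTH1 in chemostat over log phase was -0.0344 after quantile normalization, array weights, whose estimation stopped before it converged, gave 0.355 for TPS2 and 0.0866 for TSL1 in day 1 over day 0 and -0.0408 for TPS1 and -0.0907 for TSL1 in day 17 over day 1, and leaving out log-phase replicate 1 gave -0.38 for TPS2 in stationary over log phase (range -0.38 to 0.54) and -0.0521 for TPS2 (-0.0521 to 0.87) and -0.0554 for TSL1 (-0.0554 to 0.56) in chemostat over log phase. The cause was not tested. The calls over all genes in beads over log phase fell to 516 under quantile normalization, against 1662. The 6 paralog results stayed short of the adjusted p limit in every alternative run, an outcome partly fixed in advance. With 1 array of a free group left out, too few splits remain for the tests against that group to pass. With all arrays, no single paralog test could pass adjustment by itself. The replicate block changed no other call of the 7 genes.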
